A study of Mus musculus with 6 samples.

Results

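Il2 and Il21 lie next to each other on mouse chromosome 3, and the open chromatin around them was compared between Th9, Th2 and Th17 cells. The stretch examined ran from 100 kb beyond the end of Il2, across the gap between the genes, to 100 kb beyond the start of Il21 (mm10, chr3:37020523-37332636, 312 kb). All peaks in it were taken from each of the 6 lists and joined into regions wherever they overlapped or touched, which gave 36 regions of 236017 in the genome. The limits of the stretch were set by position, and each region in it rests on a peak called in at least 1 library. ATAC-seq marks DNA that the Tn5 transposase can reach, and the authors called peaks separately for each of the 6 libraries, without an input control.

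Naive CD4 T cells of wild-type C57BL6/J mice, labelled as spleen and per the methods from spleen and lymph nodes, had been cultured to day 5 with anti-CD3 and anti-CD28, and each subset was represented by the libraries labelled replicate 1 and replicate 3. Per the methods, Th2 cultures also received IL-4, IL-2 and anti-IFNγ. Th9 cultures received the same with TGF-β added. Th17 cultures received IL-6, TGF-β, IL-23, IL-1β, anti-IFNγ, anti-IL-4 and anti-IL-2, so IL-2 was supplied to the Th9 and Th2 cells and blocked in the Th17 cells. Per the methods, the mice were of both sexes and 8 to 16 weeks old, without a value for each library. The labels do not say whether replicates 1 and 3 came from separate animals or cultures, so each p-value below measures the spread between these libraries, which may be technical. Th17 differed from the others in many culture conditions at once, and these cannot be told apart.

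IL-2 is the growth factor that activated T cells make for themselves and their neighbours. IL-21 is made by T cells that help B cells and by Th17 cells, in which it feeds back on the cells that secrete it. Both cytokines belong to the family whose receptors share the common gamma chain, and both signal through JAK kinases and STAT proteins. The Il2 promoter is a classical target of NFAT and AP-1, factors that are activated through the T cell receptor.

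Il2 (ENSMUSG00000027720.7, chr3:37120523-37125959) and Il21 (ENSMUSG00000027718.8, chr3:37222759-37232636) are both on the minus strand, so that Il2 lies downstream of Il21, and 96.8 kb separate the genes. Positions are given here as kb upstream of the Il2 start, and on this scale the Il21 start lies at 106.7 kb. The sequence just upstream of each gene's start, from RefSeq on GRCm38.p6, is shown because the promoters differed in how often they were called. The Il2 sequence spans chr3:37125960-37126204 and the Il21 sequence chr3:37232637-37232886, both read on the minus strand. Capitals mark the word GGAAAA or its reverse complement, the core bound by NFAT factors.
Il2 promoter: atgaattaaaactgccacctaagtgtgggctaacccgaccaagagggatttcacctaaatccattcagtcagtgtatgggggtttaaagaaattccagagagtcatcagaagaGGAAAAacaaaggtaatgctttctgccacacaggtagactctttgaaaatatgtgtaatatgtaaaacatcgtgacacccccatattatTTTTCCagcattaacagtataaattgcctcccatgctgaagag
Il21 promoter: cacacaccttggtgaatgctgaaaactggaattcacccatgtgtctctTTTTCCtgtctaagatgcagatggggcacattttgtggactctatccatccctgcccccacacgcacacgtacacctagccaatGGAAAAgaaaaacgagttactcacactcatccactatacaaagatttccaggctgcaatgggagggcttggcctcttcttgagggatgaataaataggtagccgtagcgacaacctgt
Each promoter held 2 of these words. Among 32851 RefSeq promoters cut to the same lengths, 20.1% and 20.4% held at least 1. The share with 2 was not counted.

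The centres of a few distal regions are shown for the pattern of calls they carried, all on the plus strand. The region 2.6 kb upstream of Il2 (chr3:37128422-37128651) was called in all 6 libraries, the 31.4-kb region (chr3:37157172-37157471) in Th9 and Th2 only, and the 83.7-kb region (chr3:37209486-37209785) in Th17 only. On either strand, capitals mark the word TGANTCA of AP-1, GGAAAA of NFAT, TGTGGT of RUNX factors, and AGATAA or TGATAA of GATA factors.
2.6-kb region: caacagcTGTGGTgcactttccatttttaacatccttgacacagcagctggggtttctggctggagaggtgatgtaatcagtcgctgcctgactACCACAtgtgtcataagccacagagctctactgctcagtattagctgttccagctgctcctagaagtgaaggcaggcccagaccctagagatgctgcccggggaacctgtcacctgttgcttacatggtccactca
31.4-kb region: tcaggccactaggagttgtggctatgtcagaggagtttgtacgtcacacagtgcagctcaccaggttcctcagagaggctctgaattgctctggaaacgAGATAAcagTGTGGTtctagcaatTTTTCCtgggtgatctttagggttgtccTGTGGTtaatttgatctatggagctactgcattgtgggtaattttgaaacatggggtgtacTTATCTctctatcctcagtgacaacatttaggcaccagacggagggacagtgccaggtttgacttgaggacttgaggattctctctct
83.7-kb region: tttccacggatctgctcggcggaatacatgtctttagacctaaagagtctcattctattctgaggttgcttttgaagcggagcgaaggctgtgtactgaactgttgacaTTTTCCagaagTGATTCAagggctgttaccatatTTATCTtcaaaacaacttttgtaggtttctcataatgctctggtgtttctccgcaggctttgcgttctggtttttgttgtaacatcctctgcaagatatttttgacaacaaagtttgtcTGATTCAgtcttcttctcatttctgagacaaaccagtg
The 2.6-kb region held 2 RUNX words. The 31.4-kb region held 2 GATA words, 2 RUNX words and 1 NFAT word. The 83.7-kb region held 2 AP-1 words, 1 NFAT word and 1 GATA word.

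The lists held 100317 to 142213 peaks, and the background coverage against which they were called, read from the lists themselves, ran from 5.65 to 17.7 fragments per position. Th9 replicate 1 was the shallowest library and called nothing below a fold enrichment of 2.11, while the lowest fold in the other 5 libraries lay between 1.71 and 1.83. A missing peak in that library can therefore be a weak one. In every library a region below the calling limit cannot be told from a closed one. Where folds are set below against the lowest fold of another library, this is description only. Strength is given throughout as a percentile, the rank of a peak's fold enrichment within its own list, with 100 the strongest. Among T cell markers, promoter peaks were present at Cd3e and Cd3d in all 6 libraries, at Cd4 in 4 and at Trbc2 in 3. Il17f and Il23r had a peak in both Th17 libraries and in no other, and Il17a in these and in Th2 replicate 3. Il13 had a peak in the Th2 libraries alone, while Gata3 and Il5 were called in all 6. Il9, the Th9 marker, and Il4, a Th2 marker, were called in every Th9 and Th2 library and not in Th17, so neither separated Th9 from Th2 by calls. None of 7 B cell, myeloid, CD8 and NK genes examined, Cd79a, Pax5, Lyz2, Csf1r, Itgam, Cd8a and Ncr1, had a promoter peak in any library. A smaller share of open cells and less accessibility per cell cannot be told apart in these bulk libraries.

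In replicates 1 and 3, the stretch held 23 and 26 peaks for Th9, 29 and 29 for Th2, and 19 and 20 for Th17. Both Th17 libraries thus had fewer peaks here than any of the other 4. Th17 replicate 3 had the highest background coverage and the shortest list, and the part of depth and list length in these counts was not tested. Peaks covered 5.99% and 7.95% of the stretch for Th9, 8.50% and 10.7% for Th2, and 5.02% and 6.84% for Th17. On chromosome 3 as a whole the covered share ran from 2.74% to 5.26% and was below that of the stretch in every library. By the number of libraries calling them, 11 of the 36 regions were found in all 6, 2 in 5, 8 in 4, 3 in 3, 3 in 2 and 9 in a single library. Across the genome, all 6 libraries called 21.4% of regions and 1 library called 37.2%.

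The regions were not spread evenly over the stretch. The 100 kb beyond the end of Il2, which hold most of Adad1, a gene of germ cells, contained 1 region, called at percentile 7.33 in Th2 replicate 1 and in no other library. Between Il2 and Il21 there were 14 regions, 6 of them called in all 6 libraries. A further region lay in the body of Il21. The 100 kb upstream of Il21 contained 20 regions, with 5 called in all 6 libraries. Accessibility thus lay almost wholly on the upstream side of the Il2 start, as the map of peaks by library shows.

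**Figure D1:**
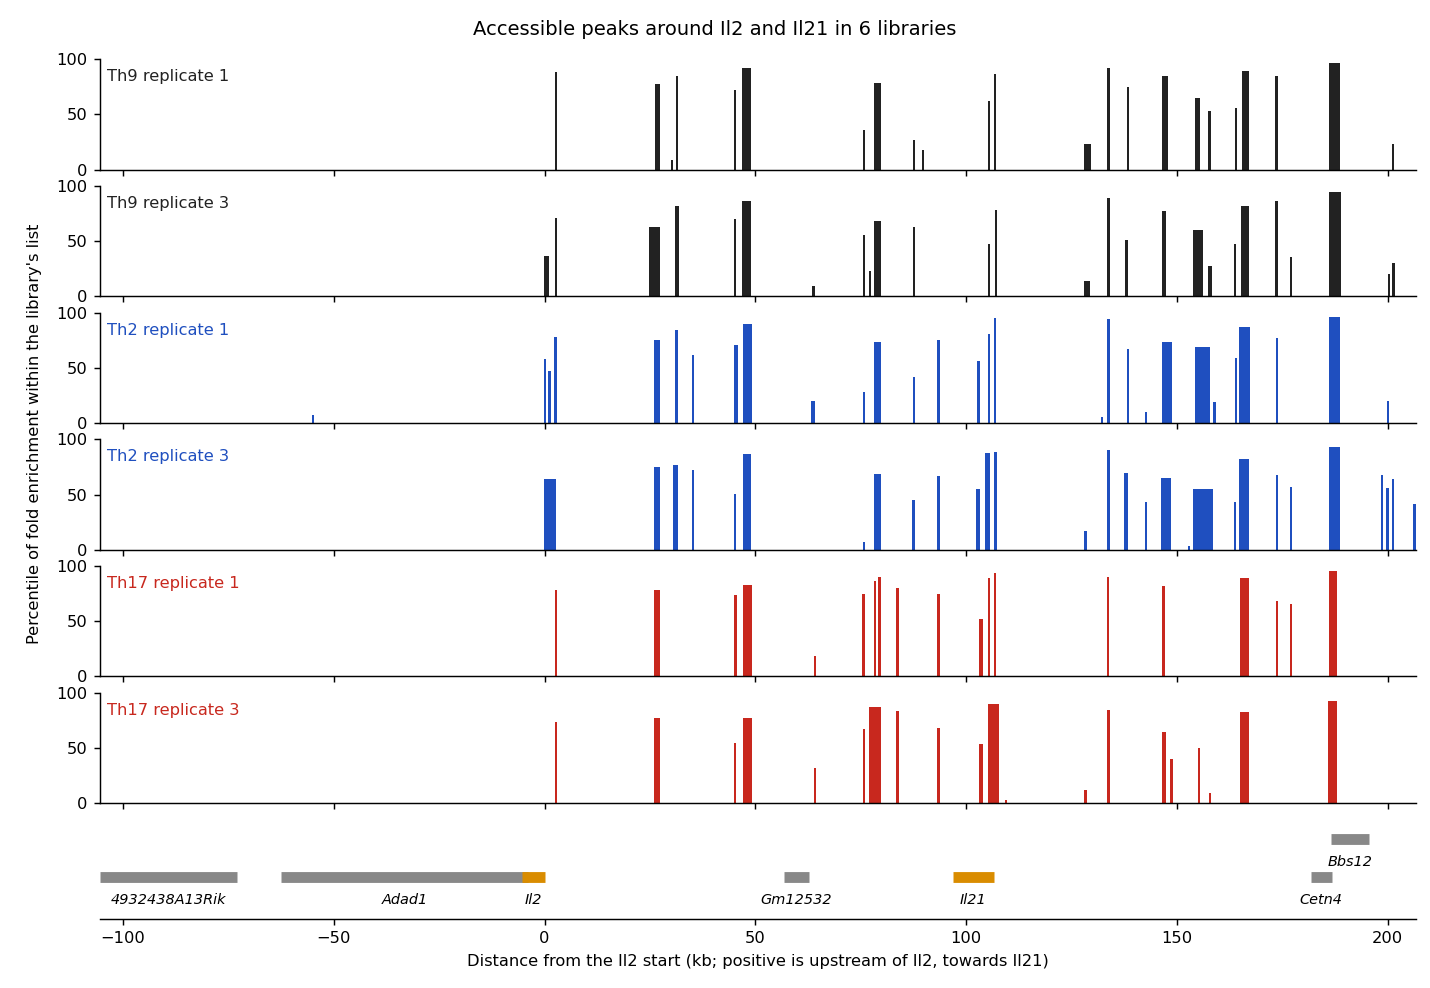
Peaks of each library from 100 kb beyond the end of Il2 to 100 kb beyond the start of Il21. The horizontal axis is the distance from the Il2 start in kb, bar width is peak width (at least 0.5 kb drawn), bar height is the within-list percentile, colours mark the subset, and the bottom row shows the gene bodies, with 4932438A13Rik cut at the edge of the stretch. Of the 36 regions, 1 lies to the left of Il2, and both Th17 tracks lack the bar at 31.4 kb.

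At Il2, the site open in every library was not the promoter. A peak 2.4 to 2.8 kb upstream of the start stood at percentiles 88.5 and 70.9 for Th9, 77.6 and 64.4 for Th2, and 78.6 and 73.7 for Th17. The subsets overlapped there, and their means of 79.7 ± 12.4, 71.0 ± 9.28 and 76.2 ± 3.45 (SD, n = 2 each) differed by less than the Th9 libraries did. Its width was 255 to 414 bp in 5 libraries. In Th2 replicate 3 it was part of a 2914 bp peak that ran on to the Il2 start.

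The Il2 promoter itself was called in 3 libraries. The promoter was taken as the 1000 bp before and the 100 bp after an annotated start. Th9 replicate 3 had a 1296 bp peak over the start at percentile 36.5, and Th2 replicate 3 had the 2914 bp peak at 64.4. Th2 replicate 1 had a 225 bp peak just inside the gene at 57.7, from -242 to -18 bp, and an 820 bp peak at 47.4 that began 792 bp upstream, so the sequence printed above lay between its peaks. Neither Th17 library and not Th9 replicate 1 had a peak in the window.

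With a missing peak counted as 0, the mean Il2 promoter percentile was 0 in Th17 (n = 2) and 39.7 ± 29.0 in Th9 and Th2 (SD, n = 4). The difference of -39.7 was within what regrouping the libraries gave (two-sided exact permutation test over 15 arrangements, p = 0.267). The smallest p this design allows is 0.0667, so no comparison could reach 0.05. By subset the mean was 18.2 ± 25.8 in Th9 and 61.1 ± 4.76 in Th2 (SD, n = 2 each). The Th2 replicate 3 value of 64.4 is that of the 2914 bp peak, which also covers the 2.6-kb site. This value therefore cannot be assigned to the promoter alone. The fold enrichments of the narrower promoter peaks, 2.17 in Th9 replicate 3 and 2.19 and 2.37 in Th2 replicate 1, were close to the lowest fold of 2.11 in Th9 replicate 1. They were above the lowest folds of the Th17 libraries, 1.76 and 1.71.

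The Il2 difference rested on weak peaks. With peaks of a −log10 q of at least 5 it was -7.17, and with a fold enrichment of at least 4 no library had an Il2 promoter peak and the difference was 0. The 2914 bp peak of Th2 replicate 3, shared with the 2.6-kb site, had a −log10 q of 9.50 and passed the q filter.

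The Il21 promoter was called in all 6 libraries and was strong in each. It stood at percentiles 86.3 and 78.6 for Th9, 95.2 and 88.3 for Th2, and 94.2 and 90.2 for Th17. Both Th9 libraries were below the other 4. The same order was seen in 9% of the 50493 regions of the genome called in all 6 libraries. The Th17 mean of 92.2 ± 2.82 (SD, n = 2) and the Th9 and Th2 mean of 87.1 ± 6.84 (SD, n = 4) differed by 5.07 (two-sided exact permutation test, p = 0.4). The difference was 17.2 with peaks of a −log10 q of at least 5 and 15.3 with a fold enrichment of at least 4. Percentiles are then taken among fewer peaks. With the fold filter the promoter peak of Th9 replicate 3, at a fold of 3.75, was also lost and counted as 0. In the full lists the difference was 2.25 without Th9 replicate 3, 3.08 without Th17 replicate 1 and 7.78 without Th2 replicate 1.

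The Il21 peak also differed in shape. In Th9 replicate 1 it was 485 bp wide and reached 3 bases past the start into the gene, and in Th9 replicate 3 it was 349 bp wide and stopped 136 bp upstream of the start. In Th2 it was 600 and 620 bp wide and in Th17 replicate 1 631 bp, each reaching over the start into the gene. In Th17 replicate 3 a single peak of 2643 bp covered the promoter and the start of the gene body. Every Th2 and Th17 peak was therefore wider here than either Th9 peak.

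A further peak lay inside Il21, between -2087 and -882 bp on the upstream scale, and showed the same order. In Th9 it was 160 and 226 bp wide at percentiles 62.3 and 47.5. In Th2 it was 631 and 1202 bp wide at 81.1 and 88.0. In Th17 replicate 1 it was 610 bp wide at 89.5, and in Th17 replicate 3 it was part of the 2643 bp peak at 90.2. The Th9 values were below the other 4 without overlap. The antisense transcript Gm12534 begins at this peak and Gm43822 overlaps the promoter peak, and ATAC-seq does not tell which strand an open site serves.

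**Figure D2:**
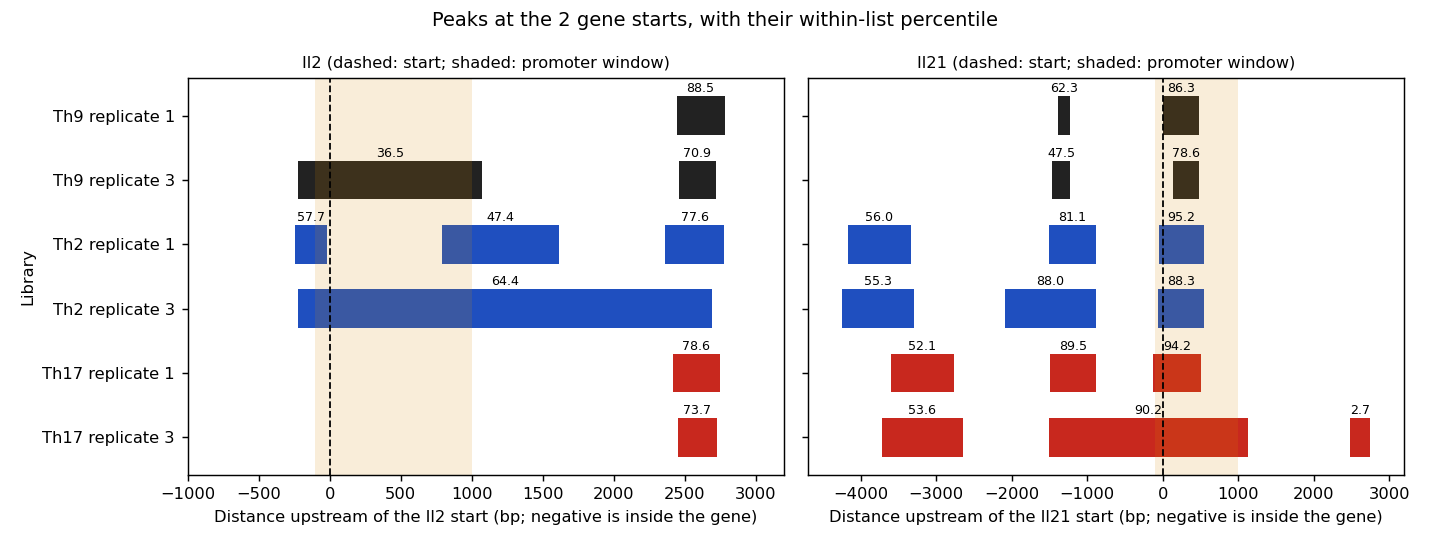
Peaks around the Il2 start (left) and the Il21 start (right) in each library, with the distance upstream of the start in bp on the horizontal axis, negative values inside the gene, and the within-list percentile above each bar. The Il2 promoter window is empty in both Th17 libraries and in Th9 replicate 1, while the Il21 window holds a peak in all 6 libraries at percentiles 78.6 to 95.2.

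Deeper in Il21, an intronic region at 103.2 kb (chr3:37228382-37229987) was open in Th2 and Th17 but was not called in Th9. Its percentiles were 56.0 and 55.3 for Th2 and 52.1 and 53.6 for Th17, and the peaks were 839 to 1073 bp wide. The peaks of the subsets were offset and overlapped only in part. Those of Th2 spanned 37228461-37229305 and 37228382-37229342, and those of Th17 37229034-37229872 and 37228915-37229987. Only 37229034-37229305 was common to all of them. The fold enrichments of 2.22 to 2.54 were close to the lowest fold of Th9 replicate 1 and above the 1.83 that was the lowest in Th9 replicate 3.

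The region at 93.4 kb (chr3:37219145-37219795), in the gap 13.3 kb downstream of the Il21 start, had the same pattern and was stronger. It stood at percentiles 75.3 and 66.8 in Th2 and at 75.1 and 67.8 in Th17, with no peak in either Th9 library. Its fold enrichments of 2.67 to 3.11 lay above the lowest folds of both Th9 libraries. Of the 3667 regions called in all Th2 and Th17 libraries and in no Th9 library, 221 had a higher mean percentile. Such regions made up 1.55% of the genome's regions and were 2 of the 36 here. At these regions, the Il21 promoter and the peak inside the gene, Th9 was therefore the subset without a peak or with the lowest percentiles. The promoter and the peak inside the gene belong to a single joined region at 107.0 kb. They share the 2643 bp peak of Th17 replicate 3.

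The gap between the genes held a Th9 and Th2 region and a Th17 region of their own. The intergenic region at 31.4 kb (chr3:37156354-37157941) was called in Th9 at percentiles 84.9 and 82.2 and in Th2 at 83.9 and 76.9, with no peak in Th17. Peak widths were 427 and 931 bp in Th9 and 554 and 1196 bp in Th2. The fold enrichments of 3.78 to 4.30 were above the lowest folds of the Th17 libraries. Among the 4732 regions with this pattern in the genome, 501 had a higher mean percentile.

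The reverse was seen at 83.7 kb (chr3:37209250-37210053), 23.0 kb downstream of the Il21 start. Both Th17 libraries had a peak there, 748 and 781 bp wide, at percentiles 80.1 and 83.2, and no other library did. The fold enrichments were 3.47 and 3.76. Of the 4008 regions of this pattern, which are 1.7% of all regions, 80 were stronger.

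Next to it, a pair of regions called in all 6 libraries had their highest values in Th17. At 75.6 kb the percentiles were 75.1 and 67.1 in Th17, 35.6 and 56.0 in Th9, and 27.7 and 7.33 in Th2. Both Th17 libraries were above the rest, as in 7.71% of regions called in all 6 libraries, and both Th2 libraries were below the rest, as in 7.32%. The Th17 mean exceeded that of Th9 and Th2 by 39.5 percentile points, more than in 99.7% of such regions. Its calls changed with the filter. With peaks of a −log10 q of at least 5 it was called in both Th17 libraries and in no other, with lists of equal length and with a fold enrichment of at least 2.2 in both Th9 and both Th17 libraries and in neither Th2 library, and with a fold enrichment of at least 4 in none.

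At 79.5 kb the percentiles were 90.1 and 87.0 in Th17, 78.4 and 68.6 in Th9, and 73.8 and 68.9 in Th2. The Th17 values again did not overlap the others. The difference of 16.1 was larger than in 94.5% of regions called in all 6 libraries. From 75.6 to 83.7 kb the Th17 libraries thus had the highest percentiles or the only peaks at each of the 3 regions.

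The opposite order was found at 48.0 kb (chr3:37172887-37175228), a broad intergenic region. It stood at 91.8 and 86.3 for Th9, 90.1 and 86.9 for Th2, and 82.6 and 76.9 for Th17, with peaks 1976 to 2220 bp wide in every library. Both Th17 libraries were below the other 4, which was seen in 10.8% of regions called in all 6. The difference was -9.04, and 16.8% of such regions had a lower one.

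**Figure D3:**
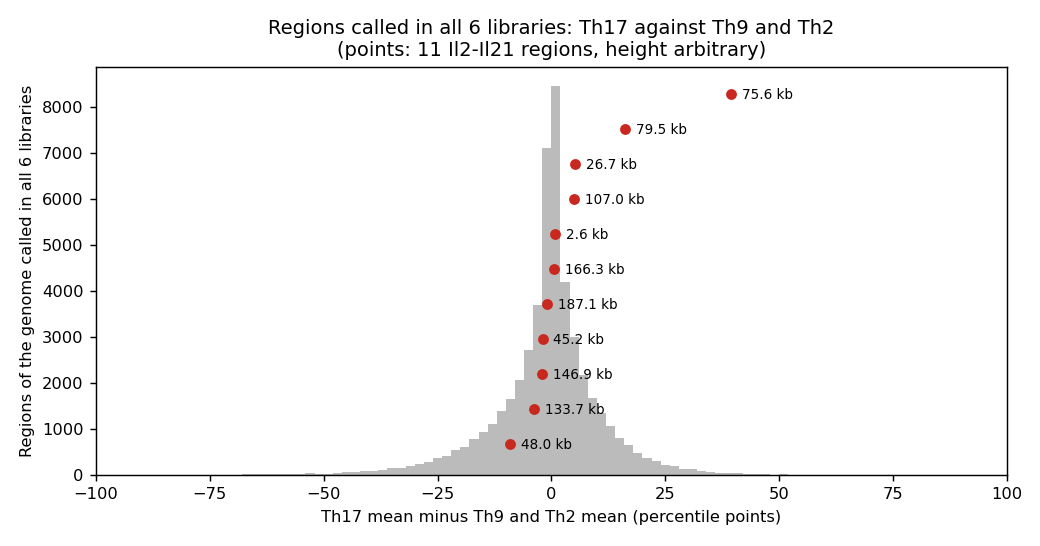
The difference between the Th17 mean and the Th9 and Th2 mean of the percentile, in percentile points, for all 50493 regions called in all 6 libraries (grey histogram, number of regions) and for the 11 in the stretch (red points, placed at arbitrary heights and labelled by kb upstream of the Il2 start). The 75.6-kb and 79.5-kb regions lie at 39.5 and 16.1, and the 48.0-kb region lies lowest of the 11 at -9.04.

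The other regions called in all 6 libraries showed no separation of a subset. At 26.7 kb the percentiles ran from 62.5 to 78.7 and at 45.2 kb from 50.6 to 73.8. Upstream of Il21 they ran from 84.4 to 93.9 at 133.7 kb, from 64.8 to 84.8 at 146.9 kb and from 81.8 to 89.4 at 166.3 kb. The strongest region lay at 187.1 kb, at 93.0 to 96.5, over the starts of Cetn4, which encodes a centrin, and Bbs12, a gene of Bardet-Biedl syndrome. No region of the 11 had both Th9 libraries above the rest, against 8.94% in the genome, or both Th2 libraries above the rest, against 11.7%.

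Regions shared by Th9 and Th2 and not called in Th17 numbered 4 of the 36, against 2% in the genome. Besides the 31.4-kb region these were weaker. At 138.2 kb the percentiles were 74.6 and 50.8 in Th9 and 67.1 and 69.6 in Th2. At 163.8 kb they were 56.1 and 47.2 in Th9 and 59.3 and 43.4 in Th2, and at 87.5 kb 26.5 and 62.8 in Th9 and 42.0 and 44.8 in Th2. In the full lists, 0 of the 36 regions were shared by Th9 and Th17 alone, a pattern found in 0.296% of all regions, although the 75.6-kb region had it under the filters named above.

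Th2 alone had 2 regions, against 2.87% in the genome. The 35.2-kb region (chr3:37160918-37161375), the nearest to the Th9 and Th2 region at 31.4 kb on its upstream side, stood at 61.2 and 72.2. The 142.6-kb region was weak, at 10.1 and 43.4, and lost replicate 1 with a fold enrichment of at least 2.2. In the full lists Th9 alone had 0 regions of 36, against 1.31% in the genome. With a fold enrichment of at least 4, the 31.4-kb and 173.8-kb regions were called in both Th9 libraries and in no other. At 200.2 and 201.3 kb, within the intron of Gm43439, 3 libraries of Th9 and Th2 had a peak and neither Th17 library did, at percentiles of 19.6 to 64.1.

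**Figure D4:**
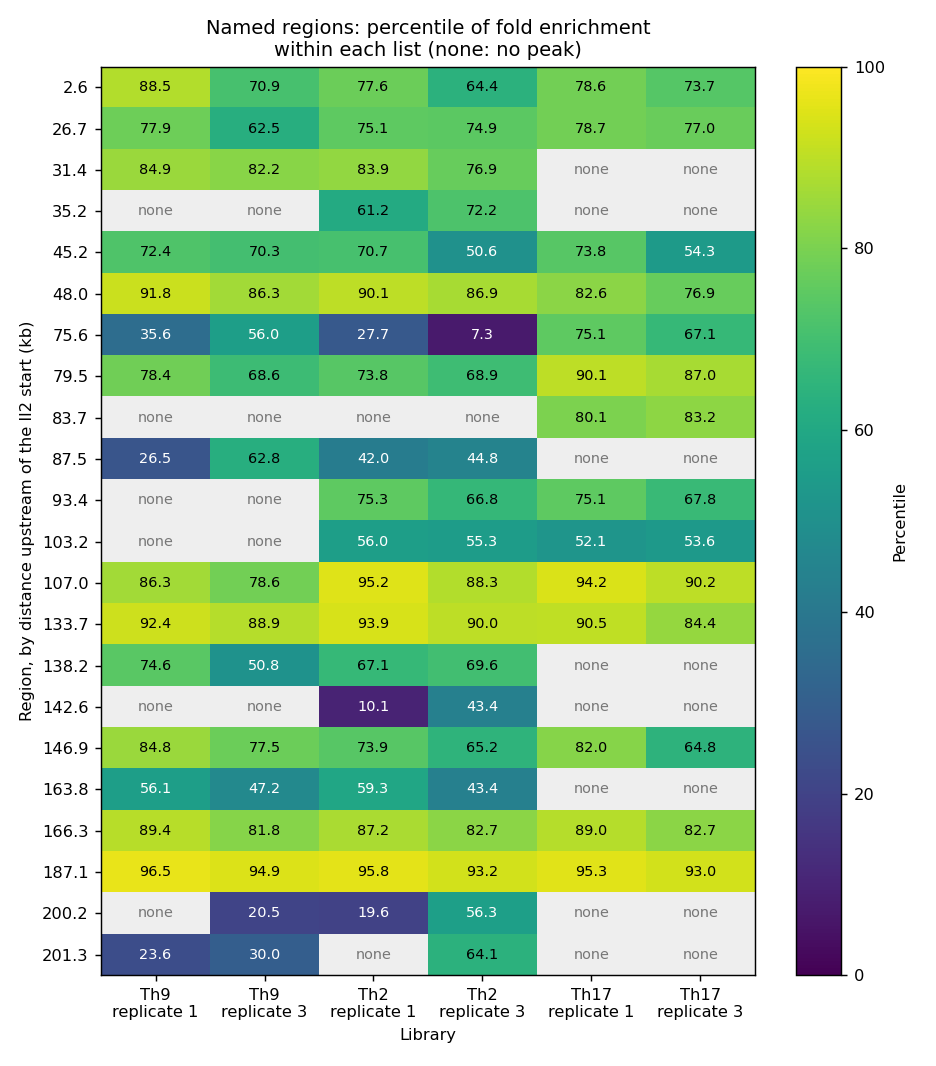
Within-list percentile of each library (columns) in the 22 regions described one by one (rows, by kb upstream of the Il2 start), with the highest-fold peak standing for a library that has several. Grey cells are libraries without a peak. The 83.7-kb row is filled in Th17 only at 80.1 and 83.2, and the 31.4-kb row in Th9 and Th2 only at 76.9 to 84.9.

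The calls of several of these regions depended on the filter. With peaks of a −log10 q of at least 5, the 31.4-kb, 83.7-kb and 93.4-kb regions kept their patterns. The 35.2-kb and 103.2-kb regions were then called in Th2 replicate 3 alone, and the 142.6-kb and 163.8-kb regions in none. With lists of equal length and with a fold enrichment of at least 2.2, the 31.4-kb, 35.2-kb, 83.7-kb, 93.4-kb and 103.2-kb regions kept theirs. With a fold enrichment of at least 4, the 31.4-kb region was called in Th9 alone, and the 35.2-kb, 83.7-kb, 93.4-kb and 103.2-kb regions were called in no library. The 48.0-kb region was then called in Th9 and Th2 alone and the 79.5-kb region in Th17 alone.

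Of the 16 annotated genes that overlap the stretch, 7 (43.8%) had a promoter peak in all 6 libraries and 6 had none in any. Among protein-coding genes of the genome the share called in all 6 was 58.7%. The 16 here include pseudogenes and noncoding genes, so the 2 shares are not of like sets. Of the protein-coding genes here, 4932438A13Rik, Il21, Cetn4 and Bbs12 were called in all 6 libraries, and Adad1 and Il2 were not. The 7 were Il21, Gm12534 and Gm43822 at one site, Cetn4, Bbs12 and Gm43439 at another, and 4932438A13Rik, whose start lies outside the stretch. Adad1, next to Il2, had no promoter peak in any library. The other 3 genes were called in some libraries. Besides Il2 these were Gm24169, in Th2 replicate 1 at percentile 5.59, and the pseudogene Gm12540, in all Th9 and Th2 libraries at 19.6 to 64.1.

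In the wider family, most genes for receptors and several for cytokines of the common gamma chain had an open promoter in every library. Of the 16 genes listed, 12 were called in all 6 libraries (75%), against 58.7% of 21951 protein-coding genes. The list includes Tslp, whose receptor pairs the IL-7 receptor alpha chain with a relative of the common gamma chain encoded by Crlf2. All 9 receptor genes were among the 12. Il2rg, the common chain itself, stood at 80.3 to 87.3, Il2rb, the beta chain, at 84.3 to 95.8, Il2ra, the alpha chain, at 87.4 to 94.3, and Il21r, the receptor for IL-21, at 72.8 to 92.2. The receptors were thus called in libraries with and without an Il2 promoter peak. Both Th17 libraries were below the other 4 at Il2rb, at 89.8 and 84.3, and at Il4ra, at 83.5 and 80.2. At the rest of the receptor genes they were not. A relation between receptor percentiles and the Il2 promoter was not tested.

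Among the 7 cytokine genes, Il7, Il15 and Il21 were called in all 6 libraries and Tslp in none. Il7, best known as a product of stromal cells, stood at 81.6 to 93.2, and Il15 at 76.4 to 85.6. Il4 was called in Th9 at 89.5 and 92.3 and in Th2 at 87.8 and 88.3, and Il9 in Th9 at 88.6 and 90.7 and in Th2 at 37.1 and 44.4. Neither was called in Th17. Il2 was therefore 1 of 3 family genes with no promoter peak in either Th17 library and a peak in some Th9 or Th2 library. In Th9 its only peak, at 36.5 in replicate 3, was weaker than those of Il4 and Il9. In Th2 its values of 57.7 and 64.4 were above those of Il9 and below those of Il4. With a fold enrichment of at least 4, 3 of the 16 genes were called in all 6 libraries. The share of all protein-coding genes under this filter was not counted, so this fall cannot be read as a trait of the family.

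**Figure D5:**
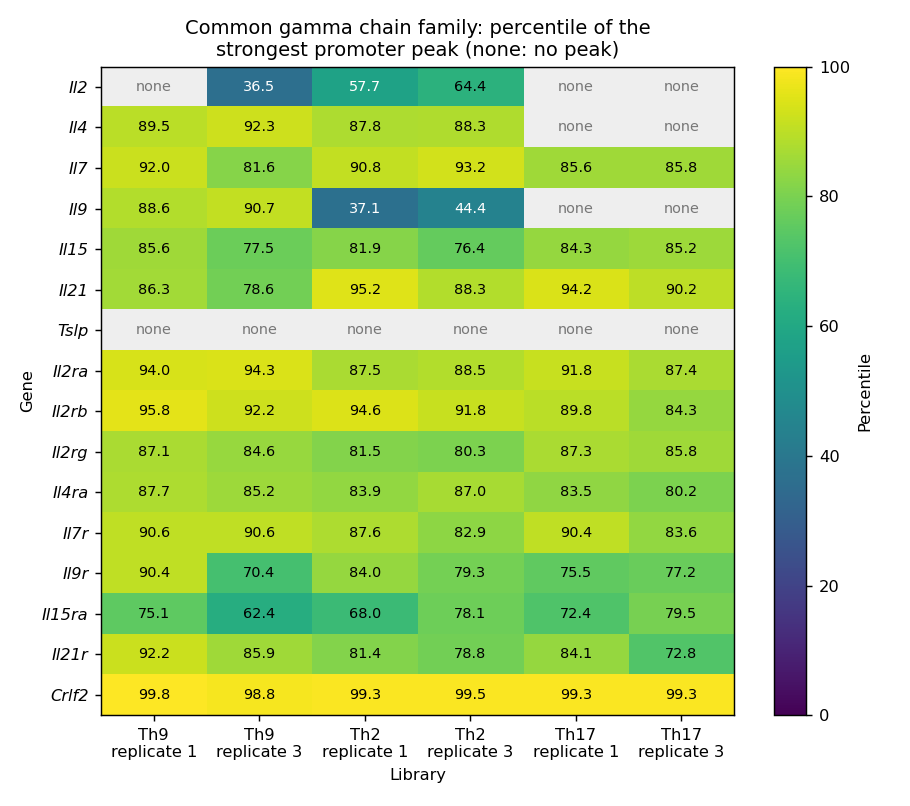
Within-list percentile of the strongest promoter peak for the 16 genes of the common gamma chain family (rows) in each library (columns), with grey cells where no peak lay in the promoter window. The 9 receptor genes, from Il2ra to Crlf2, are filled in all 6 libraries, and Il2, Il4 and Il9 are empty in both Th17 libraries.

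The sequence of the 36 regions was searched for 5 words on both strands in 300 bases around each centre. The NFAT word GGAAAA was present in 15 of 36 (41.7%), against 17.5% of the 236016 regions searched. Of the 11 regions called in all 6 libraries, only those at 107.0, 166.3 and 187.1 kb held it. In the genome 16.4% of regions called in all 6 did. The other regions here with this word were called in fewer libraries, some in a single one. The STAT word TTCNNNGAA was present in 8 of 36 (22.2%, against 8.38%) and the GATA words AGATAA or TGATAA in 12 of 36 (33.3%, against 19.5%). The AP-1 word TGANTCA was present in 6 of 36 (16.7%, against 12.8%) and the RUNX word TGTGGT in 11 of 36 (30.6%, against 23.3%). No word contains another, but neighbouring matches may share bases. The median GC content was 45.8% here and 49.0% over all regions, and its part in these shares was not tested.

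The words were not confined to a pattern of calls. The NFAT word was counted 4 times in the 35.2-kb Th2 region and the GATA words 3 times in the 163.8-kb Th9 and Th2 region. The 75.6-kb region, highest in Th17, held 0 of the 5 words, as did the 30.1-kb, 45.2-kb and 177.0-kb regions. The 2 AP-1 words of the 83.7-kb region, printed above, made it the only region here with more than 1. A match is a run of letters and does not show that a factor was bound.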

How the data were processed

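ATAC-seq libraries of Th9, Th2 and Th17 cells, 2 each, were analysed from their lists of peaks. Per the labels and methods, the authors trimmed reads with Trim Galore 0.4.3, aligned them to mm10 with Bowtie2, removed duplicates with Picard, excluded mitochondrial and low-quality alignments, and called broad peaks per library with MACS2 2.1.0 on paired fragments against a single genome-wide background. Reads of nearly identical copies can be lost to the quality filter. The deposited columns were the fold enrichment (a linear ratio), the −log10 p and −log10 q, and a display score derived by the authors' peak caller, which was not used.

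The fold enrichment was turned into a percentile within its list. Percentiles are ranks, so they depend on how many weak peaks a list holds. Peaks were joined where they overlapped or touched, and a library called a region with at least 1 bp of overlap. The highest-fold peak gave its value. A subset pattern needed both libraries. Depth is unknown as read counts; the background coverage was solved from the fold and p of flat peaks. Genes were from GENCODE M21 (basic) and sequences from RefSeq GRCm38.p6, the assembly of mm10.

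Promoter percentiles of Il2 and Il21 were compared between Th17 and the other 4 libraries by a two-sided exact permutation test with no adjustment over the 2 comparisons, and region patterns were counted without a test. Regions were described one by one if they overlapped Il2 or Il21 or their promoters, were were found in all 6 libraries, or had a call from both libraries of 1 subset and from neither of another. Genes named were Il2, Il21, their neighbours, the gamma chain family and cell type markers. A gene of the marker list is not reported here. The members and lists were chosen with earlier results of these data known. Alternatives were filters on q and fold, equal list length, other overlap, joining and promoter rules, bins, each library left out and a replicate block. The steps were checked on simulated data, where 2000 of 2000 call patterns and 200 of 200 background coverages were recovered. Python 3.11.15, numpy 2.4.6, pandas 2.3.3 and matplotlib 3.10.9 were used.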

Additional observations from a re-analysis of the deposited data

How the results depend on the processing

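The counts of regions depended on how strong a peak had to be. With a −log10 q of at least 5, regions shared by Th9 and Th2 without Th17 fell from 4 to 1, those of Th17 alone rose from 1 to 2, those of Th9 alone or Th2 alone fell from 2 to 1, and those shared by Th2 and Th17 fell from 2 to 1. With a fold enrichment of at least 4, regions called in all 6 libraries fell from 11 to 1. Those of Th9 and Th2 fell to 1 and those of Th2 and Th17 to 0. Under this filter 3 family genes in place of 12 had a promoter peak in all 6 libraries. The share of all protein-coding genes was not counted under it. Regions of Th9 alone or Th2 alone numbered 1 with lists of equal length and 1 with a fold enrichment of at least 2.2, a filter added after the data had been seen, as was the count of Th2 and Th17 regions. With at least 50% of a region covered, 5 regions were called in all 6 libraries and 0 in Th9 and Th2 without Th17. In bins of 1 kb the counts were 22 in all 6, 5 in Th9 alone or Th2 alone and 4 in Th2 and Th17. With a call in either library, 10 were of Th9 alone or Th2 alone and 2 of Th17 alone.

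With 1 library left out, the counts ran from 11 to 13 for all 6, 4 to 5 for Th9 and Th2, 1 to 2 for Th17 alone, 2 to 6 for Th9 alone or Th2 alone and 2 to 2 for Th2 and Th17, and the family count was 12 to 12. The count of Th9 alone or Th2 alone was 5 without Th9 replicate 3, 5 without Th2 replicate 1 and 6 without Th2 replicate 3, and that of Th17 alone was 2 without Th17 replicate 1, since 1 library then stood for its subset. The Th17 difference ran from -52.9 to -31.4 at the Il2 promoter and from 2.25 to 7.78 at the Il21 promoter. Over all 14 alternatives of each, it kept its direction except that it was 0 for Il2 with a fold enrichment of at least 4, and p ran from 0.1 to 1 for Il2 and from 0.2 to 0.6 for Il21, none of which could reach 0.05.

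The replicate numbers were not shown to pair the libraries. Across 50493 regions the correlation of the replicate differences was 0.168 between Th9 and Th2, 0.0313 between Th9 and Th17 and -0.00984 between Th2 and Th17. With a replicate block the differences stayed at -39.7 for Il2 and 5.07 for Il21, each with p = 0.333 (exact permutation test over 9 arrangements, smallest p 0.111). The lists give no read counts, so a region below the calling limit of a library cannot be told from a closed one.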

Other observations

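Among the 14 regions that met none of the rules for naming, the one with the highest percentiles in most libraries lay 173.8 kb upstream of the Il2 start and 67.1 kb upstream of that of Il21. It stood at percentiles 84.7 and 86.8 in Th9, 77.3 and 68.2 in Th2 and 68.7 in Th17 replicate 1, with no peak in Th17 replicate 3, so that both Th9 libraries were above the other values. A wide region at 157.7 kb was called in 5 libraries, in a single peak of 3558 or 4831 bp in Th2, in 2 peaks each in the Th9 libraries and in Th17 replicate 3, and not in Th17 replicate 1. At 64.0 kb and 128.4 kb, 4 libraries had a peak, and at 64.0 kb none stood above percentile 32.0. The region at 177.0 kb was called in 1 library of each subset, at 36.0 in Th9, 56.9 in Th2 and 66.1 in Th17.

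Of the 9 regions called in a single library, 22.2% held repeat-masked bases in the 300 bases around their centre, against 72.7% of the 11 regions called in all 6 libraries and 76.7% of all regions of the genome. The difference in this small group was not tested.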
